A study of Homo sapiens with 18 samples.

Results

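Of the 42141 genes measured in acini of wild-type and JNK-knockout mammary epithelial cells, 47 separated the genotypes by at least 2-fold in each of 3 treatments, always in the same direction. The ratio was taken between the mean TPM (transcripts per 1000000, a level scaled by transcript length) of the 3 JNK-knockout and the 3 wild-type libraries of a treatment, after 0.5 was added to each mean. A gene was kept when the ratio was at least 2 in all 3 treatments or at most 0.5 in all 3, and when the mean of the higher genotype was at least 2 TPM in each treatment. In this way 29 genes were higher and 18 lower in the knockout cells, out of 11519 genes that reached the level asked for. The genes were thus chosen by the measured JNKKO over WT ratio of mean TPM and by that level, so the genotype difference is described here without any test.

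The cells were MCF-10A.B2, a derivative of the non-tumour human breast line MCF-10A that carries a HER2 chimera which a bivalent drug, the B/B homodimerizer, can pair and switch on. Wild-type (WT) and JNK-knockout (JNKKO) cells were grown as acini in growth factor reduced Matrigel for 21 days in medium with horse serum, insulin, cholera toxin and hydrocortisone. For the last 14 days EGF was replaced by ethanol (control), by the dimerizer, or by the dimerizer together with TGF-β1, which gives 6 groups of 3 libraries. The chimera and the replacement of EGF were thus shared by every group. Which JNK genes were edited, and whether the knockout was 1 clone or a pool, is not given in the sources used here. A property of the cells used for the knockout, such as that of a clone, cannot be told apart from the loss of JNK in any of the values below. No label states whether replicates were grown in separate cultures. The p-values therefore cover the spread among these libraries alone, and that spread may be technical.

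JNK, the c-Jun N-terminal kinase, is a stress-activated MAP kinase that phosphorylates c-Jun and other members of the AP-1 family, which bind the DNA motif TGANTCA. Granins such as chromogranin B and VGF are carried in the dense-core granules of endocrine and neural cells, and proSAAS, the product of PCSK1N, belongs to the same secretory system as an inhibitor of the prohormone convertase PCSK1. Genes such as CA9 and EGLN3 are classical targets of the hypoxia-inducible factors, and AREG and PLAU encode an EGF receptor ligand and the protease urokinase, both known from invasive epithelial cells.

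The libraries held 24243537 to 34499651 expected counts. Replicate 3 of the WT group with dimerizer and TGF-β1 carries a genotype tag that reads JNK knockout, against its title, by which it was grouped. It held 32.5 TPM of PCSK1N, and no library titled JNKKO exceeded 0.13 TPM. PCSK1N was itself chosen with this library counted as WT, so its level does not settle which label is right. Without this library 29 higher and 16 lower genes met the rule, and all of these were among the 47. Mitochondrially encoded transcripts took 30.8%, 18.6% and 22.7% of all TPM in the WT groups (control, dimerizer, dimerizer with TGF-β1) and 21.99%, 18.5% and 13.4% in the JNKKO groups in the same order. TPM rescaled without these transcripts, an alternative chosen after seeing the data, gave 20 higher genes, 19 of them among the 29, and 32 lower genes, which included all 18. The balance between the directions thus turned with that scaling, and the share moved with genotype in control and with TGF-β1. All libraries held basal epithelial markers, with KRT5 between 1989 and 4626 TPM and TP63 between 18.8 and 42.2. Luminal markers were present too, with KRT8 at 76.4 to 322 TPM, KRT18 at 122 to 196 and GATA3 at 6.79 to 15.9. KRT19 and ESR1 stayed at or under 0.1 and 0.33 TPM. Levels were not even between genotypes: with dimerizer basal LAMB3 was at 195 to 216 TPM in WT and 618 to 708 in JNKKO. Basal KRT14 was at 245 to 284 and 134 to 143 there. The JNK genes remained transcribed in JNKKO cells, with MAPK8 between 6.31 and 7.87 TPM and MAPK9 between 15.3 and 22.5, against 5.90 to 12.51 and 24.9 to 35.7 in WT. MAPK10 was at 2.00 to 3.32 TPM against 2.08 to 4.48. Every JNKKO library thus lay below every WT library for MAPK9. The direction of MAPK8 differed between treatments, with means of 6.43 TPM in WT and 7.50 in JNKKO control, and 11.2 and 6.99 with TGF-β1. Of markers of other cell types, CDH5 (endothelium) reached at most 0.02 TPM, PTPRC (leukocytes) at most 0.26, and the neuroendocrine factor INSM1 at most 0.02, while NEUROD1 was at 0 in every library. Other markers of these types were present, among them PECAM1 (endothelium) at 0.35 to 0.39 TPM in WT control and 1.73 to 2.29 in JNKKO control. ENO2, a neuronal enolase gene, was at 1.15 to 2.18 TPM in WT and 23.1 to 30.1 in JNKKO with TGF-β1, and DCN, the decorin gene of fibroblasts, reached 111 TPM in WT with TGF-β1.

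Promoter sequences were matched for 31 of the 47 genes in RefSeq (GRCh38.p14), as windows from 250 bases before the start of the gene to 50 bases after it. A gene was counted once if any of its windows held a motif. On either strand the AP-1 motif TGANTCA was present for 4 of the 31 genes, PCSK1N, IL1RL1, CA9 and DLG4. It was present for 9.37% of 27305 genes with windows of the same length. The cAMP response element TGACGTCA, which differs from the AP-1 motif by 1 additional base in its middle, was present in VGF, AREG and DLG4, and in 2.25% of all these genes. The motif ACGTG lies in the core of sites for hypoxia-inducible factors and was searched after the values had been seen. It was present for 8 of 31 members (25.8%) and for 24.9% of all these genes. The windows of 4 genes the results turn on are printed, with the AP-1 motif in capitals for PCSK1N and CA9 and the cAMP response element in capitals for VGF and AREG. They lie at chrX:48835561-48835860 (minus strand), chr9:35673678-35673977 (plus strand), chr7:101165520-101165819 (minus strand) and chr4:74444886-74445185 (plus strand), in the order PCSK1N, CA9, VGF, AREG, and each is written along the strand of its gene.
PCSK1N: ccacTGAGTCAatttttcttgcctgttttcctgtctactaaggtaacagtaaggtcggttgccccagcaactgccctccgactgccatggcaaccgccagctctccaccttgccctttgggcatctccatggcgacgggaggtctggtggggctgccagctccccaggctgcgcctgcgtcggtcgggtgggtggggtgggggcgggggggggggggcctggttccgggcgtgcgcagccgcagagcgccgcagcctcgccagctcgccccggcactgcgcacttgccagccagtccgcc
CA9: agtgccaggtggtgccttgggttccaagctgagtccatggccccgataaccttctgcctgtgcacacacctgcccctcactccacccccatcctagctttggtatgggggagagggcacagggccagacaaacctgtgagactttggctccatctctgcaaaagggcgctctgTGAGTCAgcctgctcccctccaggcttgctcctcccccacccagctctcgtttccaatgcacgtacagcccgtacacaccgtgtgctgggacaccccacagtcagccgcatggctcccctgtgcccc
VGF: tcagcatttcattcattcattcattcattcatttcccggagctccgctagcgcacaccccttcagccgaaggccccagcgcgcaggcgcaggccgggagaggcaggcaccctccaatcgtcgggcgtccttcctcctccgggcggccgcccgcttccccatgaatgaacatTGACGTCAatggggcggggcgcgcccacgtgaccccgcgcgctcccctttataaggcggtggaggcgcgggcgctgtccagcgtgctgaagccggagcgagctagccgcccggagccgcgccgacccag
AREG: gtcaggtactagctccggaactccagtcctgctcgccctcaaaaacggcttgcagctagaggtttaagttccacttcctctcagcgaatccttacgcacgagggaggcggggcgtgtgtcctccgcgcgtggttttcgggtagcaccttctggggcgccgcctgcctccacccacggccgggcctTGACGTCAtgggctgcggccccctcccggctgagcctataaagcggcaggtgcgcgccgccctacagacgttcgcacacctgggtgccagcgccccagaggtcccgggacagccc
The AP-1 motif began 246 bases before the start in PCSK1N, at the far end of the window, and 77 bases before it in CA9. The cAMP response element began 79 bases before the start in VGF and 65 bases before it in AREG. These are matches of letters and show no binding, and no match of 1 motif lies within a match of another.

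The separation was seen in single libraries as well as in means. In 44 of the 47 genes the 3 and 3 libraries did not overlap in any treatment, which also held for 28.5% of all genes at the level the rule asks for. Within a single treatment, 60.8%, 60.3% and 62.7% of genes with at least 2 TPM in either group did not overlap (control, dimerizer, TGF-β1). In 20 genes, 10 in each direction, no JNKKO library overlapped any WT library over all 9 and 9, against 1.94% of those genes. Both counts follow in part from the rule and are read as description. The 3 genes with overlap were RP11-334C17.6, HIST2H3C and RP11-173P15.5, all lower in JNKKO. The gap was widest with TGF-β1 in 28 genes, with dimerizer alone in 11 and in control in 8. The median log2 ratio of the 29 higher genes was 1.30 in control, 1.36 with dimerizer and 2.32 with dimerizer and TGF-β1. For the 18 lower genes it was -1.64, -1.52 and -1.91. Taken in 1 treatment alone, the same limits were met by 261 genes upward and 210 downward in control, by 181 and 139 with dimerizer and by 394 and 334 with TGF-β1, so wide gaps were more common with TGF-β1 among all genes too.

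**Figure D1:**
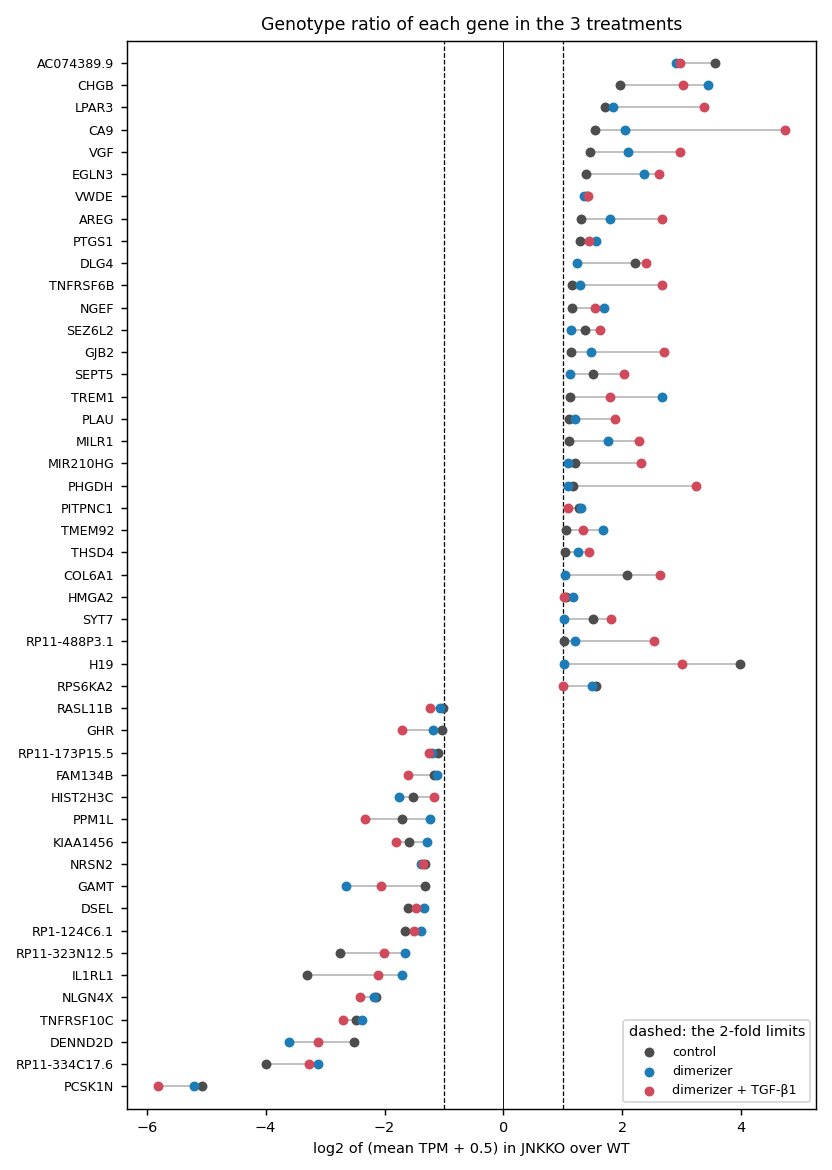
Log2 of the JNKKO over WT ratio of mean TPM + 0.5 (x axis) for each of the 47 genes (rows), with 1 point for each treatment and dashed lines at the 2-fold limits of the rule. PCSK1N stands at the far left in all 3 treatments, and the TGF-β1 points of CA9, LPAR3 and PHGDH lie far to the right of their control points.

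The genes that were lower in JNKKO cells were led by PCSK1N, the proSAAS gene (chromosome X, 48831094 to 48835633, minus strand, hg38), whose AP-1 motif is marked in the first sequence above. Its level was 13.8, 15.2 and 21.6 TPM in WT control, 21.9, 19.9 and 18.1 with dimerizer and 29.1, 28.3 and 32.5 with dimerizer and TGF-β1. In JNKKO it was 0, 0.05 and 0 TPM, then 0.06, 0.05 and 0.05, then 0.13, 0 and 0 in the same order of treatments. All WT libraries were high and all JNKKO libraries were at or next to 0: 3803 expected counts over 9 libraries stood against 6, and 4 JNKKO libraries held none. With 0.5 TPM added to each mean, WT exceeded JNKKO 33.6-fold in control, 37.0-fold with dimerizer and 56.1-fold with TGF-β1. In bulk RNA of this kind, fewer cells that express a gene and less of its RNA in each cell cannot be told apart.

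A second X-linked gene with a neural role, NLGN4X, which encodes a neuroligin of synaptic membranes, was low in JNKKO throughout. It was at 3.94, 3.70 and 3.58 TPM in WT control against 0.56, 0.36 and 0.46 in JNKKO, and at 2.97, 2.87 and 2.73 against 0.17, 0.14 and 0.09 with TGF-β1. NRSN2, the gene of the vesicle membrane protein neurensin, was at 2.48 to 5.57 TPM over the 9 WT libraries and at 0.57 to 2.29 over the 9 JNKKO libraries. No library of either gene crossed over. PCSK1N and NLGN4X were the only members on chromosome X, which held 2.92% of the genes at the rule's level, and they lie far apart on it.

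Receptor genes formed another group of the lower members. IL1RL1 (chromosome 2, 102311502 to 102352037, plus strand) encodes ST2, the receptor of the alarmin IL-33. It was at 40.6, 34.9 and 34.8 TPM in WT control, 7.45, 7.48 and 6.37 under the dimerizer and 20.3, 21.8 and 19.7 with TGF-β1. In JNKKO the gene was at 3.25, 3.04 and 3.50 TPM, then 1.79, 1.81 and 1.85, then 3.51, 3.79 and 5.81. Both genotypes were lowest with dimerizer, and no library of 1 genotype reached the range of the other. TNFRSF10C, a decoy receptor for the death ligand TRAIL, was at 4.34 to 6.11 TPM in WT and 0.23 to 0.84 in JNKKO. GHR, the growth hormone receptor gene, was at 4.12 to 7.48 TPM in WT and 1.13 to 3.38 in JNKKO.

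Among intracellular proteins, DENND2D, which encodes an exchange factor for Rab GTPases, stood at 4.14, 4.86 and 4.13 TPM in WT control, 7.25, 7.71 and 7.27 under the dimerizer and 4.80, 3.25 and 4.57 with TGF-β1. The JNKKO values were 0.50, 0.26 and 0.31, then 0.19, 0.21 and 0.04, then 0.03, 0.03 and 0.06 TPM. After PCSK1N it had the widest gap with dimerizer among the lower members, 12.2-fold by the ratio of the rule, and its last JNKKO group rested on 4 counts. PPM1L, a phosphatase of the PP2C family, and KIAA1456 (TRMT9B in GENCODE 29), a relative of tRNA methyltransferases, reached the highest levels of a single library on this side. PPM1L was at 44.2, 42.9 and 42.9 TPM in WT control against 13.0, 12.49 and 13.5 in JNKKO control, and at 11.8, 8.28 and 8.86 against 1.26, 1.78 and 1.49 with TGF-β1. KIAA1456 was at 42.3, 40.2 and 38.7 TPM against 13.3, 13.0 and 13.1 in control. JNKKO was below WT within each treatment for both, yet the WT libraries with TGF-β1 lay below the JNKKO control libraries.

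GAMT, which encodes the last enzyme of creatine synthesis, was at 3.59 to 6.83 TPM in WT and 0.42 to 1.74 in JNKKO. DSEL, a dermatan sulfate epimerase relative, was at 5.14 to 16.5 TPM against 1.62 to 4.74, and RASL11B, which encodes a small GTPase, at 7.27 to 13.3 against 2.86 to 5.49. FAM134B (RETREG1), the gene of a receptor for the autophagy of endoplasmic reticulum, overlapped across treatments only, at 5.53 to 13.4 against 1.47 to 5.67 TPM. The remaining 5 lower members were a histone gene and 4 noncoding RNAs. HIST2H3C encodes a histone H3 with a near-identical copy, HIST2H3A, so that reads could be divided between them. HIST2H3C was at 1.43 to 11.9 TPM in WT and 0 to 3.13 in JNKKO. In control HIST2H3A went the other way, with means of 1.46 TPM in WT and 5.97 in JNKKO, against 3.38 and 0.85 for HIST2H3C. With dimerizer HIST2H3A was at 3.99 in WT and 1.14 in JNKKO, and with TGF-β1 at 1.06 and 0.84. A lower level in JNKKO control is thus not shown for the pair together. RP11-334C17.6, a short annotated transcript, rested on 4 counts in all, each in WT, at up to 22.4 TPM. RP11-323N12.5, antisense in TIMP2, was at 5.81 to 38.9 TPM in WT and 0 to 13.9 in JNKKO, and RP11-173P15.5, opposite UNC119B, at 1.05 to 11.02 against 0 to 5.85. RP1-124C6.1 (LINC02518), a long intergenic RNA, was at 1.55 to 25.99 against 0 to 7.46 TPM.

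**Figure D2:**
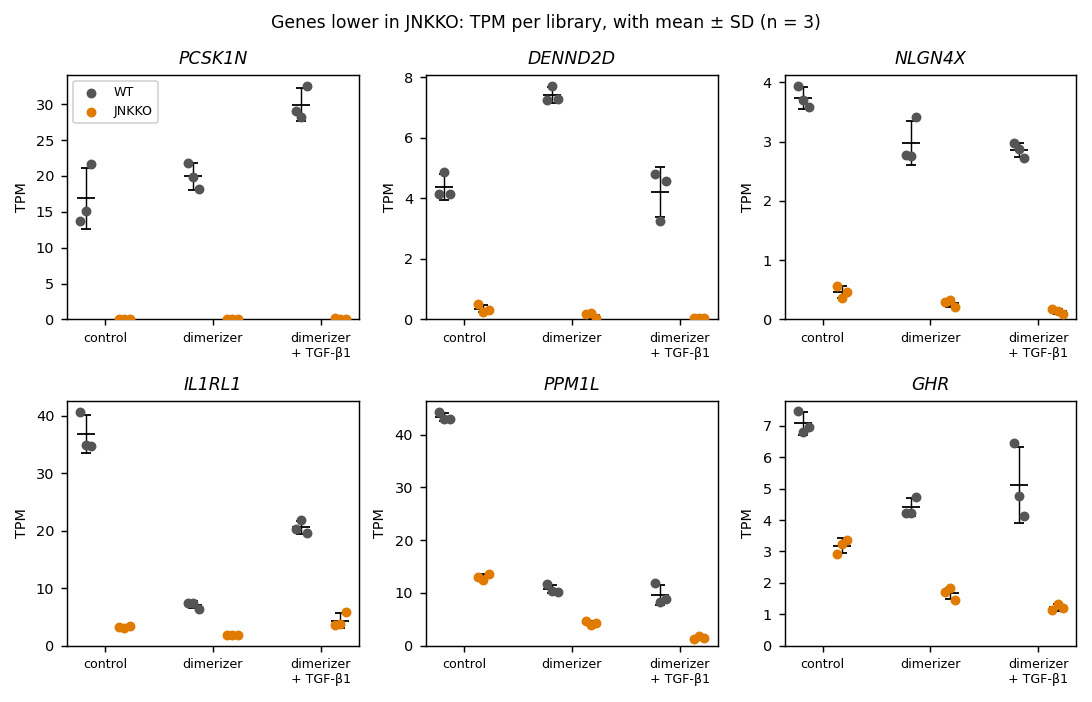
TPM of 6 genes that were lower in JNKKO (PCSK1N, DENND2D, NLGN4X, IL1RL1, PPM1L, GHR) for each library (points) in control, dimerizer and dimerizer with TGF-β1 (x axis), with bars for the mean ± SD of 3 libraries. JNKKO points lie below the WT points of the same treatment in every panel, and PCSK1N lies at or next to 0 in JNKKO.

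On the other side, 7 of the 29 genes that were higher in JNKKO cells are known from secretory granules, vesicles or neuronal scaffolds, a grouping made after the values had been seen. The same grouping held 3 of the 18 lower members, PCSK1N, NLGN4X and NRSN2. Its share over all genes was not counted, so it is no trait of the higher members alone. CHGB (chromosome 20, 5911430 to 5925361, plus strand), the chromogranin B gene, was at 0.40, 0.43 and 0.67 TPM in WT control, 3.21, 2.82 and 2.78 under the dimerizer and 2.89, 5.01 and 4.19 with TGF-β1. In JNKKO it was at 3.54, 3.05 and 3.56, then 31.4, 45.3 and 34.1, then 35.6, 38.3 and 34.3 TPM. Both treated JNKKO groups lay above all other libraries. VGF, the granin gene whose promoter with the cAMP response element is printed above, was at 0.85, 1.07 and 0.77 TPM in WT control, 2.91, 3.02 and 2.57 under the dimerizer and 0.34, 0.48 and 0.41 with TGF-β1. The JNKKO values of VGF were 2.94, 3.40 and 3.58, then 12.3, 14.6 and 14.1, then 6.28, 6.82 and 6.76 TPM. VGF was highest with dimerizer alone in both genotypes, and its libraries did not overlap within a treatment.

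SYT7, which encodes a calcium sensor of vesicle fusion, was at 0.89 to 5.65 TPM in WT and 3.56 to 12.6 in JNKKO. DLG4, the gene of the postsynaptic scaffold PSD-95, was at 0.74 to 2.37 TPM in WT and 5.42 to 13.5 in JNKKO, without overlap over all 18 libraries. NGEF, an exchange factor of the ephrin pathway, was at 1.21 to 3.05 against 3.09 to 10.7 TPM, and SEZ6L2, a membrane protein gene, at 0.89 to 4.63 against 3.46 to 14.2. SEPT5, a septin gene at 0.54 to 3.20 TPM in WT and 2.44 to 13.3 in JNKKO, overlaps GP1BB and a readthrough of both, so its level is uncertain. The summed level of the neural and neuroendocrine markers was 22.1 to 25.9 TPM in WT control, 31.4 to 34.5 in JNKKO control, 35.9 to 42.9 and 70.8 to 91.4 in the same order under the dimerizer, 94.3 to 125 in WT with TGF-β1 and 184 to 200 in JNKKO with TGF-β1. TUBB3, a tubulin gene, was its highest member in each group, 3 or 4 of the 12 markers reached a mean of 1 TPM in any group, and NEUROD1 and INSM1 were at or next to 0. The list did not move as a whole. By edgeR, 4 of its 7 tested genes were higher and 1 lower in JNKKO in control. The counts were 3 and 1 under the dimerizer, and 3 and 2 once TGF-β1 was added. Among all tested genes 49.3%, 40.1% and 52.9% were called in either direction, in the same order. SYP, which encodes synaptophysin, was at 0.86 to 1.29 TPM in WT and 0.52 to 0.75 in JNKKO with TGF-β1. Of the 12 genes 8 to 10 had any signal in a group, and the part of such cells in these results was not tested.

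The hypoxia-related members were CA9, EGLN3 and MIR210HG, 3 of the 30 genes of a hypoxia list that was added after the values had been seen. In the edgeR test of JNKKO against WT, 14 of the 30 were higher and 4 lower in control. With dimerizer 26 were higher and 0 lower, and with TGF-β1 27 and 1. Of all tested genes 49.3%, 40.1% and 52.9% were called in either direction, in the same order. The 30 include the 3 members, which were chosen by this contrast. CA9 (chromosome 9, 35673856 to 35681159, plus strand), which encodes a carbonic anhydrase of the cell surface and has an AP-1 motif in the window above, was at 11.1, 3.30 and 4.75 TPM in WT control. It was at 7.14, 10.7 and 7.58 in WT with dimerizer and at 0.13, 1.42 and 3.77 with TGF-β1. JNKKO libraries held 21.4, 19.9 and 17.2 TPM, then 41.1, 25.6 and 43.3, then 63.6, 60.4 and 56.1. The lowest JNKKO library of CA9 lay above the highest WT library, and with TGF-β1 the ratio of the rule was 26.6-fold. EGLN3, which encodes a prolyl hydroxylase of the oxygen sensor, was at 1.64 to 8.33 TPM in WT and 9.90 to 47.9 in JNKKO. MIR210HG, the host RNA of the hypoxia microRNA miR-210, was at 5.93 to 16.0 against 15.9 to 56.9 TPM. The WT libraries of these genes were uneven: in control replicate 2 was the lowest for all 3, and with TGF-β1 replicate 1 was.

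Of the secreted factors, proteases and receptors, AREG (chromosome 4, 74445134 to 74455009, plus strand), the amphiregulin gene, whose promoter is the last one above, was the most abundant member. It was at 45.8, 58.3 and 60.9 TPM in WT control, 139, 141 and 133 under the dimerizer and 91.9, 112 and 132 with TGF-β1. In JNKKO it was at 134, 140 and 135, then 462, 492 and 484, then 716, 731 and 689 TPM. The JNKKO control and WT dimerizer libraries of AREG overlapped, and each treated JNKKO group lay above all WT libraries. PLAU, the urokinase gene, was at 8.61, 8.10 and 10.6 TPM in WT control, 35.3, 33.7 and 33.5 under the dimerizer and 101, 121 and 127 with TGF-β1. Its JNKKO values were 19.5, 18.9 and 22.1, then 79.0, 76.9 and 81.8, then 444, 407 and 430 TPM. The treated groups of PLAU lay above control in both genotypes, highest with TGF-β1.

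TREM1, a receptor gene best known from myeloid cells, was at 0.83 to 33.9 TPM in WT and 5.00 to 102 in JNKKO, in each genotype highest with TGF-β1. The leukocyte marker PTPRC stayed at or under 0.26 TPM, but the summed level of 15 immune and endothelial markers was 20.5 to 21.0 TPM in WT and 49.98 to 56.6 in JNKKO with dimerizer, and 38.4 to 44.7 and 66.2 to 71.3 with TGF-β1, led by CD68 or CSF1R, and its part in TREM1 and MILR1 was not tested. In control the sum was 22.9 to 23.7 TPM in WT and 19.02 to 20.4 in JNKKO, and 12 to 14 of the 15 genes were above 0 in a group. TNFRSF6B, which encodes the soluble decoy receptor DcR3, was at 11.8 to 32.9 TPM against 27.9 to 141, and it overlaps a readthrough with RTEL1 on the same strand. LPAR3, a lysophosphatidic acid receptor gene, was at 0.07 to 2.44 TPM in WT and 3.09 to 10.04 in JNKKO, without overlap over all libraries. MILR1, the gene of an inhibitory receptor known from mast cells, was at 0.63 to 2.66 against 2.04 to 9.67 TPM.

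COL6A1, which encodes a chain of the matrix protein collagen VI, was at 4.69, 2.90 and 3.85 TPM in WT control, 8.50, 9.79 and 9.69 under the dimerizer and 11.2, 12.3 and 13.9 with TGF-β1. In JNKKO it was at 18.6, 17.4 and 17.3, then 21.1, 16.5 and 21.4, then 83.5, 76.8 and 78.7 TPM. No WT library reached the lowest JNKKO library, and the JNKKO libraries with TGF-β1 stood far above all others. The summed level of 12 fibroblast markers, led by FBLN1, was 354 to 391 TPM in WT and 269 to 339 in JNKKO with TGF-β1. In the edgeR test of JNKKO against WT there, 4 of the 7 fibroblast markers tested were higher and 3 lower. Among all tested genes 52.9% were called there in either direction. The sum thus does not stand for the list, and the part of such cells in the COL6A1 values was not tested. COL6A1 was the 1 member among 12 collagens and among 13 mesenchymal markers that reached the rule's level. GJB2, the gene of the gap junction protein connexin 26, was at 6.70 to 34.6 TPM in WT and 23.6 to 89.8 in JNKKO. THSD4, which encodes a matrix protein of the ADAMTS-like family, was at 1.29 to 4.25 against 3.58 to 11.7 TPM, and VWDE at 0.73 to 1.12 against 2.70 to 3.77. TMEM92 was at 0.98 to 4.43 against 2.62 to 13.1 TPM.

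Enzyme and regulator genes made up 5 of the higher members. PHGDH, the first enzyme of serine synthesis from glycolysis, was at 3.48, 5.43 and 5.52 TPM in WT control, 21.3, 15.46 and 16.9 under the dimerizer and 2.57, 2.53 and 2.91 with TGF-β1. The JNKKO values were 12.7, 10.7 and 10.8, then 32.7, 46.6 and 35.7, then 28.5, 25.4 and 34.0 TPM. In WT the dimerizer group stood alone at the top, whereas in JNKKO both treated groups were high. HMGA2, which encodes a chromatin protein of embryonic and tumour cells, was at 11.8 to 77.4 TPM in WT and 25.6 to 150 in JNKKO, and it kept close to the limit of the rule, with ratios of 2.07, 2.25 and 2.03. RPS6KA2, a ribosomal S6 kinase gene downstream of ERK, was at 3.45 to 17.1 against 10.8 to 35.2 TPM. PTGS1, the cyclooxygenase 1 gene, was at 1.34 to 3.12 against 4.29 to 9.36 TPM, and PITPNC1, a phosphatidylinositol transfer protein gene, at 3.47 to 12.9 against 10.6 to 29.1.

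H19 (chromosome 11, 1995176 to 2001470, minus strand), an imprinted long noncoding RNA that hosts MIR675, was the 1 member among 17 imprinted genes at the rule's level. It was at 4.04, 3.59 and 3.32 TPM in WT control, 3.04, 6.80 and 5.77 under the dimerizer and 0.78, 0.49 and 0.99 with TGF-β1. JNKKO libraries held 73.4, 60.8 and 60.0 TPM in control, but 11.6, 8.48 and 12.8 under the dimerizer and 10.6, 9.48 and 8.54 with TGF-β1. The genotype ratio was 15.7-fold in control and 2.01-fold with dimerizer. AC074389.9 (ELFN1-AS1) held 6 counts over the 9 WT libraries, all with dimerizer, and 353 over the JNKKO libraries, at 2.44 to 6.25 TPM. RP11-488P3.1 was at 8.01 to 22.9 TPM in WT and 17.9 to 61.8 in JNKKO. GENCODE 29 gives its identifier the name BCAR3, and it overlaps the gene listed as BCAR3 on the same strand. The authors' model may thus have divided reads between them. BCAR3 was at 19.1 to 51.2 TPM in WT and 20.1 to 62.9 in JNKKO. In control BCAR3 went the other way, with means of 25.6 TPM in WT and 21.2 in JNKKO. Those of RP11-488P3.1 were 8.99 and 18.6. By edgeR the JNKKO minus WT log2 difference of BCAR3 was -0.29 ± 0.06 in control. It was 0.71 ± 0.06 with dimerizer and 0.30 ± 0.05 with TGF-β1. A ratio of at least 2 in all 3 treatments is thus not shown for the pair together, and their sum was not tested.

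**Figure D3:**
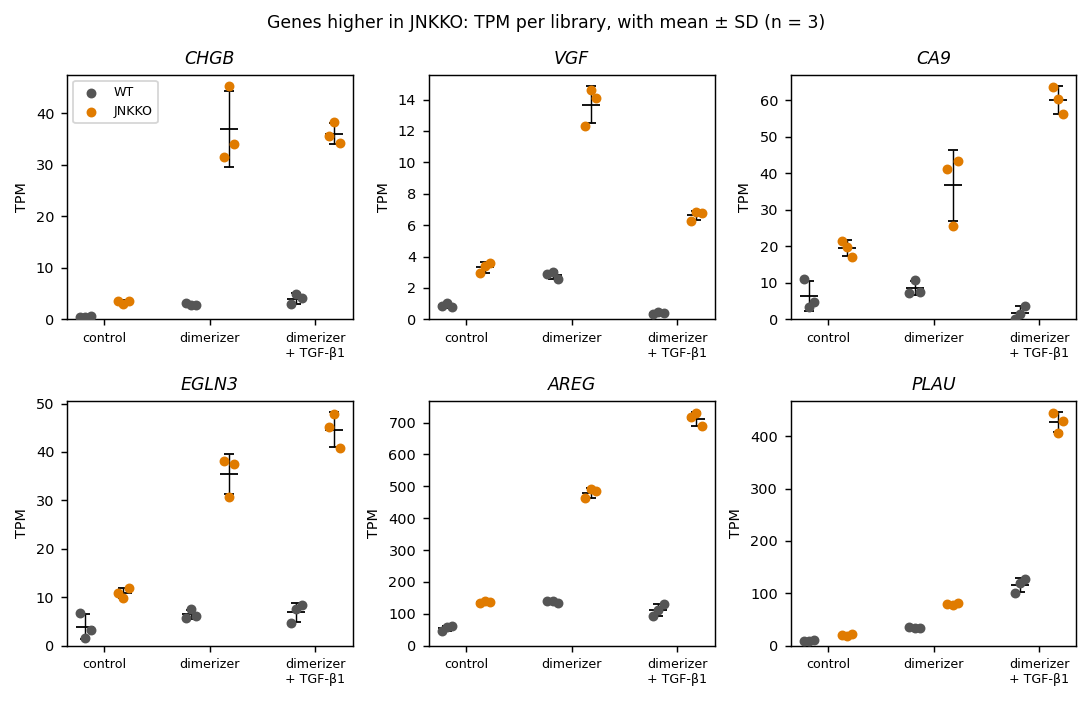
TPM of 6 genes that were higher in JNKKO (CHGB, VGF, CA9, EGLN3, AREG, PLAU) for each library (points) in control, dimerizer and dimerizer with TGF-β1 (x axis), with bars for the mean ± SD of 3 libraries. JNKKO points lie above the WT points of the same treatment in every panel, and the distance is largest in the treated groups.

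Near the limits of the rule, RP11-488P3.1, H19 and RPS6KA2 stood just inside with smallest ratios of 2.02, 2.01 and 2.01, and HES7, IZUMO4 and CCL20 just outside with 1.99, 1.99 and 1.94. By level, MILR1 was just inside at 2.25 TPM in its lowest JNKKO group and C1QTNF1 just outside at 1.71. Among lower genes RASL11B and GHR were inside with WT over JNKKO ratios of 2.02 and 2.06, and ALDH3A1 and RP11-417L19.6 outside with 1.9996 and 1.99, while RP1-124C6.1 at 2.27 TPM and KBTBD7 at 1.79 lay on either side of the level. When single libraries were left out in turn, 29 of the 47 genes stayed members each time and 18 dropped out at least once. RP11-173P15.5 dropped out under 7 of the 18 removals, and PHGDH, COL6A1, SYT7, RP11-488P3.1, H19, RPS6KA2, RASL11B and RP11-334C17.6 under 3 each. PCSK1N, TNFRSF10C and IL1RL1 met the rule under every setting tried. Counts per 1000000 in place of TPM kept 39 of the 47. The higher genes that dropped out when TPM was rescaled without mitochondrial transcripts were TNFRSF6B, GJB2, TREM1, PLAU, PITPNC1, TMEM92, THSD4, HMGA2, RP11-488P3.1 and RPS6KA2.

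The treatments within a genotype did not enter the rule as a contrast, so they were tested. The group means that make up each step did enter it, however. A low WT mean with TGF-β1, for example, both helps a gene qualify as higher in JNKKO and lowers its WT step. Counts over members are therefore given beside the share of all tested genes and read no further. The tested genes were not limited to those at the rule's level. The dimerizer was set against control, and TGF-β1 with dimerizer against dimerizer alone, with the quasi-likelihood test of edgeR over 16911 genes and Benjamini-Hochberg adjustment. A gene was called at an adjusted p under 0.05, and differences are log2 values ± standard error. Of the members 46 were tested, since RP11-334C17.6 had too few counts. In either direction 35 of the 46 were called for the dimerizer in WT and 36 in JNKKO, against 55.9% and 40.4% of all tested genes, and 36 and 35 for TGF-β1, against 65.2% and 60.7%. Those called with a difference of at least 2-fold numbered 26 and 25 for the dimerizer, against 8.44% and 5.59% of all tested genes, and 17 and 14 for TGF-β1, against 15.8% and 14.3%. The 2 comparisons of a genotype share its dimerizer libraries, so their values are set side by side only.

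With dimerizer most genes that were higher in JNKKO cells rose in both genotypes. In WT 24 of 29 rose and 0 fell, with a median of 1.27, where 30.3% of all tested genes rose and their median was 0.03. In JNKKO 24 rose and 1, H19, fell, with a median of 1.42, where 22.5% of all tested genes rose with a median of 0.01. The same 21 genes rose in both. CHGB rose by 2.43 ± 0.33 in WT and 3.49 ± 0.17 in JNKKO, the vesicle gene SYT7 by 2.33 ± 0.16 and 1.60 ± 0.13, and PHGDH by 1.84 ± 0.20 and 1.79 ± 0.17. TREM1 rose by 1.41 ± 0.35 in WT and 2.99 ± 0.22 in JNKKO, and VGF by 1.55 ± 0.14 and 2.09 ± 0.10. Groups by role were made after the values had been seen, and with 24 of 29 rising their counts are no result about a role. All 6 secreted factors, proteases and receptors rose in both genotypes, among them AREG by 1.21 ± 0.12 and 1.85 ± 0.11 and PLAU by 1.80 ± 0.10 and 2.01 ± 0.09. All 5 enzymes and regulators did so too, with HMGA2 at 1.44 ± 0.08 and 1.69 ± 0.08. Over the same step the mitochondrial share of counts went from 15.2% to 9.0% in WT and from 10.8% to 8.90% in JNKKO, and its part in these rises was not tested.

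Some higher members behaved otherwise. VWDE did not pass in either genotype, at -0.04 ± 0.12 in WT and 0.03 ± 0.09 in JNKKO. DLG4 and COL6A1 rose in WT, by 1.22 ± 0.12 and 1.23 ± 0.16, and did not pass in JNKKO, at 0.04 ± 0.08 and 0.21 ± 0.12. EGLN3 and TMEM92 rose in JNKKO, by 1.83 ± 0.25 and 0.70 ± 0.16, and were at 0.70 ± 0.33 and -0.36 ± 0.22 in WT without passing. CA9 rose in JNKKO by 0.95 ± 0.35 (Benjamini-Hochberg adjusted p of 0.0491 in the edgeR quasi-likelihood test), a call lost under 10 other settings, among them each removal of a JNKKO control or dimerizer library except dimerizer replicate 2. AC074389.9 was called in WT, but from 6 counts against 0, so that no fold is given, and the call was lost with limma on log2(TPM + 1).

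Of the 17 tested genes that were lower in JNKKO cells, 9 fell and 2 rose with dimerizer in WT, where 25.6% of all genes fell, and 11 fell and 0 rose in JNKKO, where 17.9% fell. Their medians were -0.75 and -0.84. The 9 that fell in both were NLGN4X, IL1RL1, RP1-124C6.1, DSEL, KIAA1456, PPM1L, FAM134B, GHR and RASL11B. IL1RL1 fell by 2.50 ± 0.11 on the log2 scale in WT and 0.84 ± 0.17 in JNKKO, PPM1L by 2.04 ± 0.11 and 1.44 ± 0.12, KIAA1456 by 1.75 ± 0.05 and 1.23 ± 0.06 and DSEL by 1.62 ± 0.12 and 1.33 ± 0.15. DENND2D and GAMT rose in WT, by 0.65 ± 0.14 and 0.65 ± 0.17, and fell in JNKKO, by 1.32 ± 0.40 and 0.95 ± 0.29 on the log2 scale, the latter with overlapping libraries. The DENND2D fall in JNKKO was not called without dimerizer replicate 3, where it was -0.85, without control replicate 1 or on log2(TPM + 1). The GAMT fall was not called without dimerizer replicate 2 or without control replicate 3, where it was -0.65, and that of NLGN4X not without dimerizer replicate 3 (-0.44) or on log2(TPM + 1). PCSK1N did not pass in WT, at 0.13 ± 0.13. In JNKKO its 1 count in control and 3 with dimerizer allow no statement.

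Adding TGF-β1 to the dimerizer split the higher members. In WT 17 of 29 fell and 7 rose, with a median of -0.56, where 31.8% of all tested genes fell and 33.4% rose and the median was within 0.01 of 0. In JNKKO 11 fell and 12 rose, with a median of 0.04, where 30.3% fell and 30.5% rose. In WT the granin gene VGF, PHGDH and H19 fell, with log2 differences of -2.94 ± 0.16, -2.91 ± 0.23 and -2.95 ± 0.39. The JNKKO values of these genes were -1.30 ± 0.09, -0.66 ± 0.16 and -0.45 ± 0.22, of which that of H19 did not pass and that of PHGDH was not called on log2(TPM + 1). LPAR3 fell by 3.59 ± 0.21 in WT and 0.61 ± 0.10 in JNKKO. CA9 fell in WT by 2.42 ± 0.62, and it was at 0.46 ± 0.33 in JNKKO without passing. Over removals of single libraries its WT difference ran from -3.66 to -1.84. The former was without WT TGF-β1 replicate 3, the library with the contradicting tag.

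The 4 genes AREG, DLG4, TNFRSF6B and MIR210HG fell in WT and rose in JNKKO on addition of TGF-β1. AREG fell by 0.46 ± 0.11 in WT and rose by 0.32 ± 0.10 in JNKKO, a rise lost without JNKKO dimerizer replicate 1 or TGF-β1 replicate 2 (0.28). DLG4 fell by 0.31 ± 0.11, a fall lost without WT dimerizer replicate 2 (-0.26), without WT TGF-β1 replicate 1 or on log2(TPM + 1), and rose by 0.82 ± 0.08. TNFRSF6B fell by 0.71 ± 0.19 and rose by 0.59 ± 0.15, and MIR210HG fell by 0.73 ± 0.18 and rose by 0.45 ± 0.13. A further 7 genes rose in both genotypes: PLAU by 1.60 ± 0.09 in WT and 2.18 ± 0.08 in JNKKO, TREM1 by 2.24 ± 0.22 and 1.15 ± 0.16, TMEM92 by 2.10 ± 0.18 and 1.04 ± 0.14, SEPT5 by 0.68 ± 0.15 and 1.46 ± 0.11, and SEZ6L2, HMGA2 and RPS6KA2 by 0.20 to 0.94. COL6A1 rose in JNKKO by 1.77 ± 0.12 and did not pass in WT, at 0.24 ± 0.14. CHGB and EGLN3 passed in neither.

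Of the 17 lower members 6 rose and 6 fell with TGF-β1 in WT, and 4 rose and 8 fell in JNKKO, with medians of -0.11 and -0.69. Of all tested genes 33.4% rose and 31.8% fell in WT and 30.5% and 30.3% in JNKKO, so the WT counts were near the background. KIAA1456 fell by 1.03 ± 0.06 on the log2 scale in WT and 1.90 ± 0.08 in JNKKO, and FAM134B by 0.63 ± 0.08 and 1.40 ± 0.11. PPM1L fell by 1.57 ± 0.15 in JNKKO and was at -0.20 ± 0.11 in WT without passing. IL1RL1 rose by 1.39 ± 0.11 in WT and 1.04 ± 0.17 in JNKKO, RASL11B by 0.52 ± 0.08 and 0.28 ± 0.11 and DSEL by 0.55 ± 0.12 and 0.41 ± 0.16. The rises of RASL11B and DSEL in JNKKO were lost under 4 and 5 other settings, among them the removal of JNKKO dimerizer replicate 3. NLGN4X fell by 1.24 ± 0.23 on the log2 scale in JNKKO. TNFRSF10C and DENND2D were called lower there too, at -0.80 ± 0.34 and -2.08 ± 0.69, but their libraries overlapped and the calls were lost under 7 and 2 other settings. PCSK1N rose in WT by 0.43 ± 0.13 (Benjamini-Hochberg adjusted p of 0.00464 in the edgeR quasi-likelihood test). Without the library whose tag contradicts its title, 13 members rose and 21 fell in WT, against 13 and 23 with it. The mitochondrial share of counts was 9.0% and 9.19% in WT and 8.90% and 5.38% in JNKKO before and after TGF-β1, and its part was not tested.

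**Figure D4:**
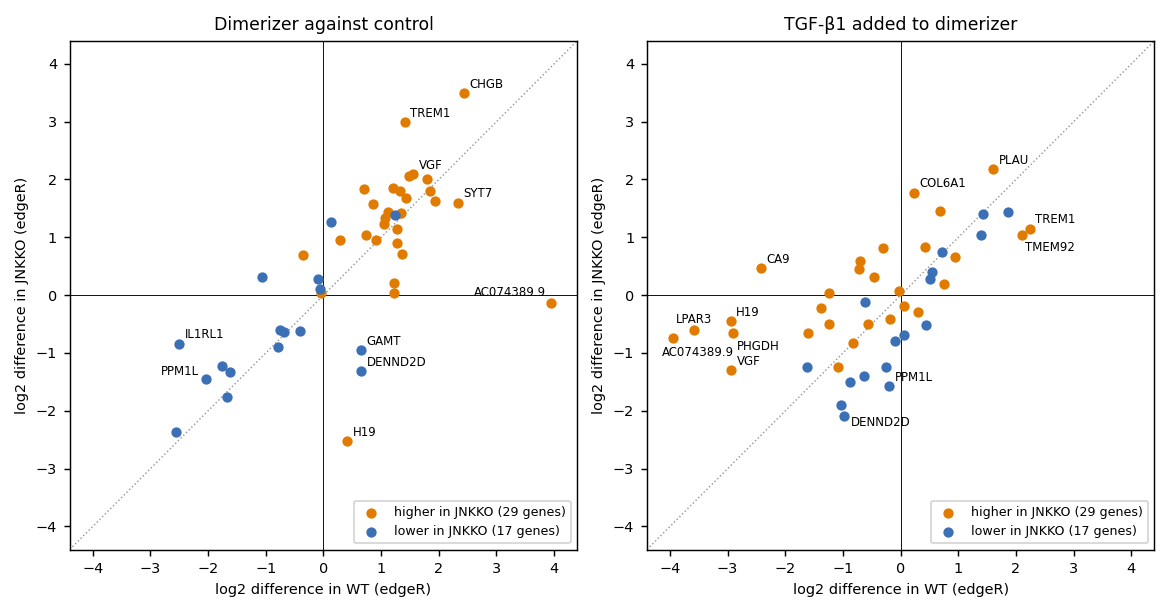
Log2 difference of 46 genes (points) in WT (x axis) and JNKKO (y axis), from the edgeR model, for dimerizer against control (left) and for TGF-β1 added to dimerizer (right), with the line of equal change dotted. Higher members cluster to the upper right with dimerizer, and with TGF-β1 many lie left of 0 and above the line. The WT values of AC074389.9 come from 6 counts or fewer and are no measure of size.

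Whether a step differed between the genotypes was tested as an interaction, the JNKKO step minus the WT step. The rule used the genotype ratio in each treatment, from which this difference is made, so the counts over members are given beside the background and read no further. For dimerizer 9 members were called higher and 8 lower of 46, where 21.4% and 21.2% of all tested genes were, 42.6% in either direction. For TGF-β1 17 were called higher and 10 lower, where 14.1% and 18.8% were, 32.9% in either direction. All 17 were genes higher in JNKKO, of which another 5 were called lower, and among the 17 tested lower members 5 were called lower and 0 higher. Without the library with the contradicting tag the counts were 17 and 8.

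For the dimerizer the difference was -2.94 ± 0.33 for H19, which fell in JNKKO and did not pass in WT, -1.97 ± 0.42 for DENND2D and -1.19 ± 0.15 for DLG4. It was 1.66 ± 0.21 for IL1RL1, where the fall in WT was the deeper one, 1.58 ± 0.46 for TREM1 and 1.13 ± 0.42 for EGLN3. The TREM1 value was not called without WT control replicate 1 (1.24) or replicate 3. That of EGLN3 was lost under 13 other settings and was 0.61 without WT control replicate 1, the highest of its WT control libraries. For TGF-β1 the difference was 2.98 ± 0.25 for LPAR3, 2.88 ± 0.71 for CA9, 2.50 ± 0.46 for H19 and 2.25 ± 0.29 for PHGDH, all of which had the deeper fall in WT or the only one. The CA9 value ran from 2.31 to 4.14 over removals of single libraries, the latter without WT TGF-β1 replicate 3. The TGF-β1 difference was -1.38 ± 0.19 for PPM1L, which fell in JNKKO. It was -1.09 ± 0.28 for TREM1 and -1.05 ± 0.23 for TMEM92, which rose less in JNKKO, and the last pair was not called on log2(TPM + 1).

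Apart from these members, the lists of related genes held few genes that met the rule. None of 35 measured genes for JNK pathway kinases and scaffolds, 30 of which reached the rule's level, did. Nor did any of 22 genes for AP-1 and other substrate factors, 18 of which reached it. In the edgeR test of JNKKO against WT, 10 of the 35 pathway genes were higher and 16 lower in control. The counts were 8 and 10 under the dimerizer, and 8 and 18 once TGF-β1 was added. Among 21 tested AP-1 and substrate genes, 4 were higher and 8 lower in control and 7 and 7 under the dimerizer. With TGF-β1 3 of these were higher and 14 lower. For all tested genes the share called in either direction was 49.3%, 40.1% and 52.9% in that order. Of 19 measured prohormone processing and granin genes 11 reached the level, and PCSK1N, CHGB and VGF were the 3 members. Among the 15 tested genes of that list, these 3 included, 7 were higher and 5 lower in JNKKO in control. Under the dimerizer 11 were higher and 2 lower, and with TGF-β1 8 and 5. PCSK1, the convertase that proSAAS inhibits, was at 3.44 to 6.56 TPM in WT and 1.02 to 5.43 in JNKKO. JNKKO minus WT, its log2 level differed by 0.05 ± 0.08 in control without passing, by -0.35 ± 0.08 under the dimerizer and by -1.75 ± 0.11 once TGF-β1 was added (Benjamini-Hochberg adjusted p of the edgeR quasi-likelihood test, 0.665, 0.000587 and 4.58e-14). CPE, which trims prohormones after cleavage, was higher in JNKKO by 0.94 ± 0.13, 1.02 ± 0.11 and 1.74 ± 0.12, and SCG5, the chaperone of a related convertase, by 2.96 ± 0.25 with dimerizer and 1.34 ± 0.09 with TGF-β1, with 0.82 ± 0.51 in control, which did not pass. PCSK2 and SCG3 stayed at or under 0.07 TPM and CHGA, the chromogranin A gene, at or under 0.27, in every library.

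The members lay scattered over the genome: no member was within 100 kb of another. Chromosome 17 held 6 of the 47 (12.8%) and 6.39% of the genes at the rule's level, and chromosome 1 held 5 (10.6%, against 10.4% of those genes). By annotation 26 of the 29 higher and 14 of the 18 lower members were protein coding, and the others were long intergenic, antisense or processed noncoding transcripts. Several overlap another gene, besides those already named: DLG4 overlaps ACADVL, IL1RL1 overlaps IL18R1 on the same strand, DENND2D overlaps CHI3L2 and PLAU overlaps C10orf55. As the use of strand in counting is not given in the sources used here, reads of such pairs may not have been told apart.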

How the data were processed

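RNA of acini was measured by paired-end sequencing of poly(A)-selected, ribosome-depleted libraries in 18 samples, grouped by their titles into 6 groups of 3. The authors deposited expected counts and TPM per gene, made from reads trimmed with cutadapt and quantified with RSEM against hg38, per the submitters' processing notes. The sources used here give no tool versions, aligner, annotation or strand setting. Altered gene names were restored for 127 genes, of which 76 carried JNKKO in place of E3, and 42125 of 42141 genes were placed with GENCODE 29. TPM depends on all other transcripts of a library, so a mitochondrial share that differs between groups shifts every gene.

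Membership was computed from the deposited TPM. Expected counts were rounded and tested with edgeR 4.0.16 in R 4.3.3 (quasi-likelihood test, TMM factors from 0.962 to 1.04, Benjamini-Hochberg adjustment over 16911 genes that passed its expression filter, 1 model over all 6 groups). The common biological coefficient of variation was 4.47%. Totals of 24243537 to 34499651 counts set the precision, and members under a few counts are named as such. DESeq2 1.42.0, limma 3.58.1 on log2(TPM + 1), other scalings, filters, offsets and removal of single libraries were alternatives. Tables and figures were made in Python 3.11.15 (pandas 2.3.3, numpy 2.4.6, matplotlib 3.10.9), and the tests were checked on simulated data. No pair of libraries of a group was identical, with chi-square values per gene of 2.28 to 12.1.

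Genes described in detail were those with the largest smallest ratio, the highest level, the largest called differences per comparison, a place in a gene list, or a place next to a threshold. The remaining members are given by their range so that each is accounted for. Members and lists were chosen with earlier results of these data known. Replicate numbers gave no clear pairing of the libraries: deviations of libraries with the same number had a mean correlation of 0.024, and 8 of 45 pairs exceeded 0.1. Libraries with other numbers had a mean of -0.012. However, 11 of the 18 libraries correlated best with their own number, so pairing was not settled.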

Additional observations from a re-analysis of the deposited data

Results flagged for a closer look

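The values here are interactions, the log2 step in JNKKO minus that in WT, and each is listed because the edgeR quasi-likelihood test of that difference passed for a gene named in its comparison or because the genotypes moved in opposite directions. The genotype ratios that chose the genes enter these differences. For the dimerizer step, H19 was at -2.94, DENND2D at -1.97, GAMT at -1.60 and DLG4 at -1.19, which means a lower step in JNKKO. On the other side, IL1RL1 was at 1.66, TREM1 at 1.58 and EGLN3 at 1.13. DENND2D and GAMT rose in WT and fell in JNKKO.

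For the addition of TGF-β1, LPAR3 was at 2.98, CA9 at 2.88 and H19 at 2.50. TNFRSF6B was at 1.30, MIR210HG at 1.18, DLG4 at 1.12 and AREG at 0.77, and these 4 genes fell in WT and rose in JNKKO. PPM1L was at -1.38, TREM1 at -1.09 and TMEM92 at -1.05. TREM1 thus had the larger step in JNKKO for the dimerizer and the smaller one for TGF-β1.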

How the results depend on the processing

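Of 186 called values of members in the treatment and interaction comparisons, 152 kept their direction and call under every alternative, and 34 lost the call or turned under at least 1. The turned value was PITPNC1 with TGF-β1 in JNKKO, at -0.18 by edgeR and 0.0064 with limma on log2(TPM + 1). With limma 12 members were called lower with TGF-β1 in JNKKO against 19, and 5 had a lower dimerizer interaction against 8. Without a filter on low counts 17 had a higher dimerizer interaction against 9. The causes were not tested. Membership moved most. The higher genes numbered 18 with an offset of 1 TPM, 16 at a minimum of 5 TPM, 3 at a ratio of 3 and 44 with CPM, which kept 26 of the 29. The lower genes numbered 9 at a minimum of 5 TPM, 7 at a ratio of 3 and 32 without mitochondrial transcripts.

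Leaving out 1 library at a time gave 25 to 32 higher and 16 to 19 lower genes. Members called higher and lower numbered 26 to 27 and 9 to 10 for dimerizer in WT, 23 to 25 and 11 to 12 in JNKKO, 12 to 14 and 21 to 23 for TGF-β1 in WT, and 14 to 15 and 16 to 19 in JNKKO. The interactions gave 7 to 12 and 7 to 8 for dimerizer and 15 to 17 and 8 to 11 for TGF-β1. A replicate block was also tried, though the pairing check did not settle whether one is needed. With it 26 and 9 were called in WT and 23 and 12 in JNKKO for dimerizer, and 13 and 23 and 16 and 19 for TGF-β1. Depth limits PCSK1N, DENND2D and AC074389.9 in their low genotype, where single counts decide.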
